A study of Mus musculus with 46 samples.

Results

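Lymphocyte marker genes were followed in kidney and liver of castrated males, sham-operated females and sham-operated males at 2 ages. The set lists 34 gene symbols of T cells, B cells, plasma cells and natural killer cells, and a gene was used when its mean reached 0.5 in at least 1 of the 12 group columns of the deposited expression tables. Of the 34 symbols, 32 were in both tables and 27 reached that minimum, out of 17242 genes in the 12-week table and 18531 in the 18-month table. Trbc1 and Trbc2, the constant segments of the T cell receptor beta chain, were not analysed here. The members just inside the minimum were Cd6, with a highest mean of 0.802, and Ms4a1, with 0.920, and those just outside were Prf1, with 0.420, and Cd28, with 0.388. Tox2, Klrb1c and Ncr1 were also below it, with highest means of 0.379, 0.298 and 0.272. At 12 weeks 23 of the 27 reached 0.5 in a group, and Cd5, Cd6, Gzmk and Pdcd1 did so only at 18 months. A gene that passed through the group where it is high had to differ between groups, so counts over the 27 are a description, and counts over the 32 are given where they were made.

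The mice were wild-type (WT) C57BL6 animals kept in a pathogen-free facility, and surgery (castration, or a sham operation in either sex) was done at 8 weeks of age. The groups were castrated males (casM), sham females (shamF) and sham males (shamM), each sampled at 12 weeks or at 18 months. Castrated males had 6 libraries per tissue at 12 weeks and 5 at 18 months, and each sham group had 3 libraries per tissue, which gives 46 libraries in 12 groups. All animals are of 1 strain, and the labels do not say whether kidney and liver came from the same animals. Polyadenylated RNA of whole tissue was sequenced with paired reads of 150 bases. The submitters set out to study why castration goes with healthier ageing. The expression tables hold 1 mean per group and no spread, in FPKM (fragments scaled by transcript length and by the number mapped) at 12 weeks and in a unit that is not named at 18 months. Calls are therefore those of the authors' own tests, at their adjusted p under 0.05. "Rose", "fell", "higher" and "lower" beside a call refer to that threshold. In whole tissue, fewer cells of a type and less RNA per cell cannot be told apart.

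T cells recognise antigen through a receptor whose signal passes through the CD3 chains, with CD4 or CD8 as coreceptor, to the kinases LCK and ZAP70. Cytotoxic T cells and natural killer cells kill through granules that hold granzymes and perforin, and both release the chemokine CCL5. B cells signal through the CD79A and CD79B pair beside their antigen receptor, and plasma cells, their antibody-secreting descendants, use the J chain to join IgA and IgM units. The mouse liver normally holds many resident natural killer and T cells along its sinusoids, and the kidney holds few lymphocytes when young. Lymphocytes, plasma cells among them, are known to gather in both organs of old mice.

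The labelled sex, tissue and surgery were checked on other genes. The summed level of 4 Y-linked genes was 0.0601 to 0.293 in the 4 sham female groups and 58.8 to 99.4 in the 8 male groups. A list of 5 kidney tubule genes summed to 0.111 to 0.749 in liver and to 1811 to 4556 in kidney. Mup20, a major urinary protein gene driven by androgen in liver, had liver means of 78.9 in castrated males against 4693 in sham males at 12 weeks and of 250.1 against 14460 at 18 months. Kap, an androgen-driven kidney gene, had 816 in castrated male, 25378 in sham female and 74818 in sham male kidneys at 18 months. At 12 weeks it had 689 FPKM in castrated males and 27835 in sham females and is listed at 0 in sham males, which goes against their label, whereas Slc7a13, another androgen-driven kidney gene, had 21.6 FPKM in castrated males against 347 in sham males. The depth of the libraries is unknown, since the tables hold means only, and a gene at the floor of 0.01 is listed at 0. At 12 weeks such an entry can be a failed estimate, because Alb, which every hepatocyte transcribes, is likewise listed at 0 in all 3 liver groups. Taken over all genes that reached 0.5, the median difference in 18-month kidney was 0.12 for castrated over sham males and 0.10 for sham females over sham males, on the log2(mean + 1) scale. In 18-month liver the same shifts were 0.10 and 0.13, and castrated males against sham females differed by 0.02 in kidney and -0.03 in liver.

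The members were low in most groups. The median member had 0.562 FPKM in castrated male, 0.523 in sham female and 0.3998 in sham male kidneys at 12 weeks, and 0.627, 0.659 and 0.326 FPKM in the livers of castrated males, sham females and sham males. At 18 months the median member stood at 1.72, 0.937 and 1.17 in kidneys and at 0.920, 1.47 and 0.327 in livers of castrated males, sham females and sham males. Sham male liver was the group with the lowest median member at both ages. Because the unit differs and was normalized separately, no level is compared between the ages.

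A few members carried most of the signal. Jchain, the joining chain of IgA and IgM, made up 30.8% of the summed member level in castrated male, 45.5% in sham female and 16.8% in sham male kidneys at 12 weeks. At 18 months it made up 36.7%, 54.6% and 56.0% of that sum in kidneys of castrated males, sham females and sham males, and 19.4%, 17.5% and 22.6% in livers. Between genes, the 18-month shares also depend on whether that unit is scaled by transcript length, which the files do not state. Jchain and Mzb1, a chaperone of antibody assembly in the endoplasmic reticulum, were higher in kidney than in liver in every arm at both ages. For Mzb1 the kidney mean was 7.63, 6.14 and 4.05 times the liver mean in castrated males, sham females and sham males at 12 weeks, and 3.25, 2.79 and 4.65 times at 18 months. No test between tissues was made.

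Zap70 stood apart from the other T cell genes in liver. Its 12-week means were 4.54 FPKM in castrated male, 8.38 in sham female and 2.78 in sham male livers, whereas Lck, which acts just before it in T cell receptor signalling, had 1.46, 1.73 and 0.712 FPKM. The Zap70 to Lck ratio was thus 3.12, 4.85 and 3.91 in livers of castrated males, sham females and sham males and 0.415, 0.319 and 0.289 in their kidneys. At 18 months the ratio was 4.90, 6.61 and 14.9 in livers and 0.376, 0.333 and 0.355 in kidneys of these arms. In sham male livers of 18 months, where Cd3e had a mean of 0.173 and Cd8a of 0.0900, Zap70 stood at 6.16 and made up 26.97% of the summed member level. Liver means of Zap70 at that age were 7.42 in castrated males and 10.51 in sham females, so the arms differed less in it than in Cd3e, with 0.656 and 1.33.

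**Figure D1:**
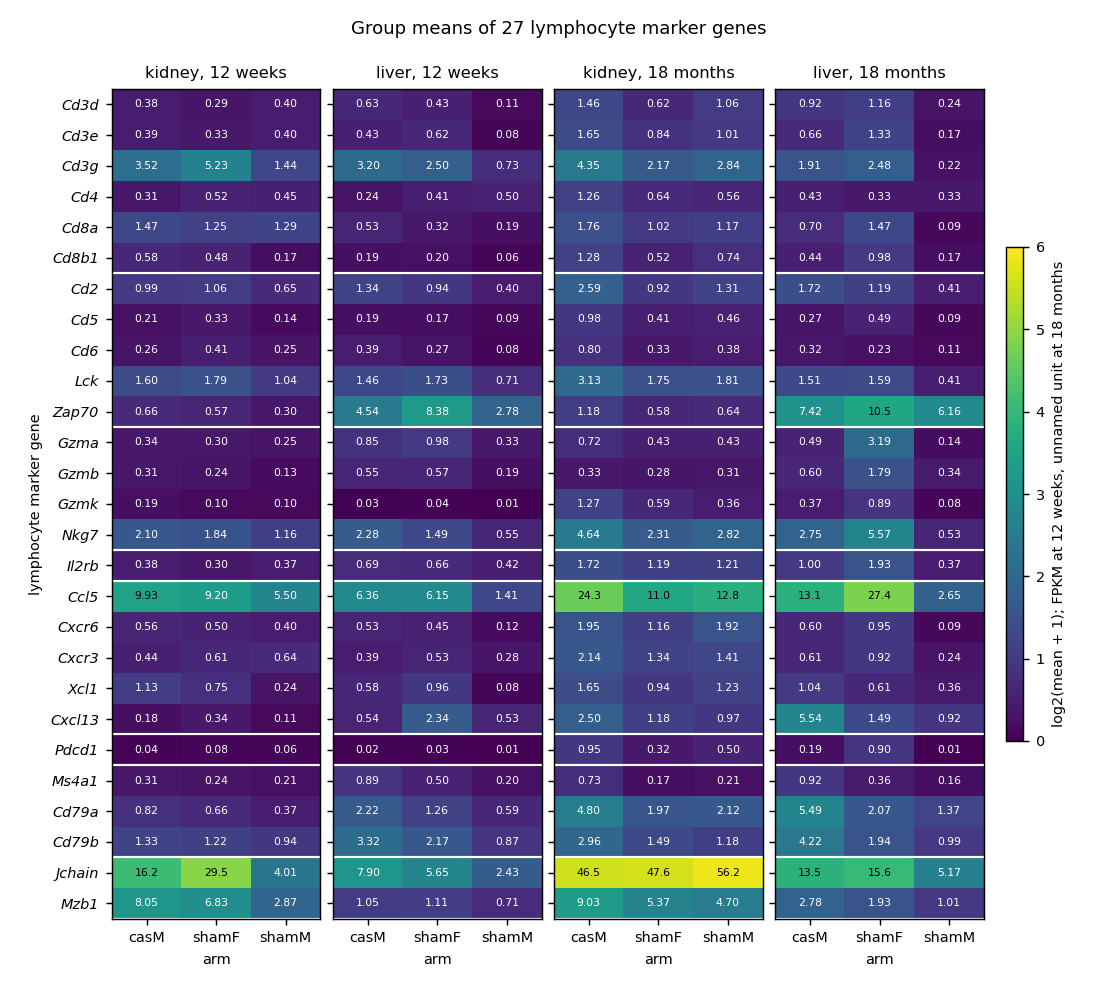
Group means of the 27 members (rows, ordered by role) in castrated males (casM), sham females (shamF) and sham males (shamM), with 1 panel for each tissue and age. Colour gives log2(mean + 1) and the printed number is the mean, in FPKM at 12 weeks and in an unnamed unit at 18 months. Jchain and Ccl5 are the brightest rows in the kidney panels, and Jchain, Ccl5 and Zap70 in the liver panels. The sham male column is mostly dark in both liver panels, with Zap70 as its highest mean.

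In liver, sham males had the lowest mean for nearly every member. At 12 weeks they were lowest for 26 of 27 members (31 of the 32), against 43.1% of all genes past the same minimum, and Cd4 was the exception, with 0.244 FPKM in castrated males, 0.414 in sham females and 0.499 in sham males. At 18 months sham male livers were lowest for all 27 (and all 32), against 61.0% of all genes. At 12 weeks the highest liver mean was in castrated males for 14 of 27 members (16 of the 32) and in sham females for 12 (15 of the 32), against 29.7% and 29.8% of all genes. At 18 months it was in castrated males for 9 (10 of the 32) and in sham females for 18 (22 of the 32), against 35.3% and 49.1% of all genes.

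Kidney showed another order. At 12 weeks the highest kidney mean was in castrated males for 15 of 27 members (15 of the 32), in sham females for 9 (11) and in sham males for 3 (6), against 23.3%, 35.0% and 41.7% of all genes. At 18 months castrated male kidneys were highest for 26 of 27 members (30 of the 32), against 43.1% of all genes, and Jchain was the exception among the 27. Cd5 and Cd6 reached the minimum only through that group. Sham female kidneys of 18 months were lowest for 20 of the 27 (22 of the 32), against 23.0% of all genes, and Gzma was tied between the sham groups. The 3 B cell members, Cd79a, Cd79b and Ms4a1 (which encodes CD20), were highest in castrated males in both tissues and at both ages. These orders are of means, without a test.

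**Figure D2:**
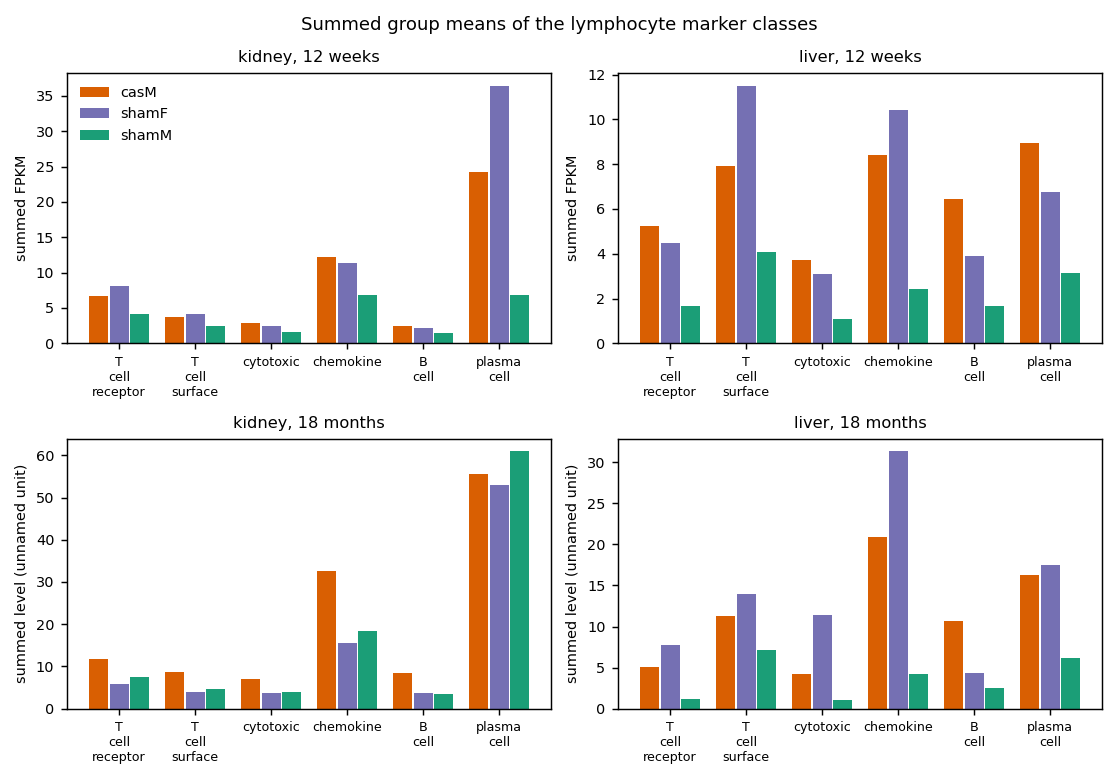
Bars give the summed group means of 6 classes of members in castrated males (casM), sham females (shamF) and sham males (shamM), in FPKM at 12 weeks and in an unnamed unit at 18 months, with no error bars because the files used hold means only. In 18-month liver the cytotoxic sum is 11.4 in sham females and 4.21 in castrated males, while the B cell sum is 4.36 in sham females and 10.6 in castrated males.

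In 12-week kidney, 1 plasma cell and 1 B cell member were higher in castrated than in sham males. Mzb1 had a mean of 8.05 FPKM in castrated males against 2.87 in sham males, and the authors' deposited table gives it an adjusted p of 4.76e-04. Cd79a, the signalling chain of the B cell receptor, had 0.824 FPKM in castrated males against 0.367 in sham males, with an adjusted p of 0.0181 in the authors' deposited table. Both rose 2.24-fold or more by the means. The 12-week tables list each gene for only 1 of the 3 comparisons of a tissue, by a rule that is not stated, so counts at this age are lower bounds. Here 4 of the 27 members were listed and 3 tested, Cd8a being the third, with 1.47 FPKM in castrated males and 1.29 in sham males (adjusted p = 0.679 in the authors' deposited table). Called members were thus 2 of 3 higher and 0 lower, where 32.8% of the 3851 genes tested in this comparison were called higher and 37.9% lower. Jchain was not tested for castration in kidney, and its means were 16.2 FPKM in castrated males and 4.01 in sham males. The 6 stromal genes summed to 128 FPKM in castrated males against 52.8 in sham males, with all 5 tested called higher, and their part in the result was not tested.

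Between sham females and sham males in 12-week kidney, Jchain, Cd3g and Ccl5 were higher in females. Jchain had 29.5 FPKM in sham females against 4.01 in sham males, a ratio of 7.37, with an adjusted p of 4.76e-04 in the authors' deposited table. Cd3g, a chain of the CD3 complex, had 5.23 against 1.44 FPKM (adjusted p = 0.00561 in the authors' deposited table). For Ccl5 the means were 9.20 FPKM in sham females and 5.50 in sham males, with an adjusted p of 0.0465 in the authors' deposited table. Cd3g did not move with its partners in these means: Cd3e had 0.334 FPKM in sham females and 0.4003 in sham males, and Cd3d had 0.289 and 0.3998, neither of them tested for this comparison. The 3 CD3 genes lie within 1 cluster on chromosome 9, with 1.34 kb between Cd3d and Cd3g and 11.7 kb between Cd3d and Cd3e. Nkg7, a granule protein of killer cells, was tested and not called, with 1.84 FPKM in sham females and 1.16 in sham males. Of 4 members tested, 3 were called higher and 0 lower, and the background was 44.4% higher and 42.1% lower of 3011 genes tested. Outside the members, the lymphocyte genes Lat, Skap1 and Thy1 were called higher in sham females in the authors' deposited table, and no gene of their list lower. Lat had 2.78 FPKM in sham females against 1.15 in sham males, Skap1 1.58 against 0.887 and Thy1 2.11 against 1.11. Stromal genes summed to 148 FPKM in sham females against 52.8 in sham males, macrophage genes to 103 against 68.8 and endothelial genes to 258 against 164. Among these and the red cell genes, Lum, Hba-a1 and Hba-a2 were called higher in sham females in the authors' deposited table. The endothelial gene Kdr and the red cell gene Hbb-bs were called lower there. They had 9.38 and 74.1 FPKM in sham females against 12.8 and 124 FPKM in sham males. The part of these cells in the result was not tested.

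No member was called between castrated males and sham females in 12-week kidney. The 5 members tested were Cd2, Lck, Zap70, Cd79b and Xcl1, and 0 of them had an unadjusted p under 0.05 in the authors' Cuffdiff-format table, where 4.77% of 5635 genes were called higher and 2.93% lower in castrated males. Xcl1, a chemokine for cross-presenting dendritic cells, had 1.13 FPKM in castrated males and 0.746 in sham females (adjusted p = 0.781 in the authors' deposited table).

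Castration was followed by higher lymphocyte transcripts of several classes in 12-week liver. Ccl5, a chemokine of T and natural killer cells, had 6.36 FPKM in castrated males against 1.41 in sham males, and the authors' deposited table gives an adjusted p of 8.56e-04. The same adjusted p of 8.56e-04 stands in the authors' deposited table for Ms4a1, with 0.890 against 0.203 FPKM, for Cd79b, with 3.32 against 0.870 FPKM, and for Jchain, with 7.90 against 2.43 FPKM, each pair being castrated males against sham males. B cell and plasma cell members thus rose beside Ccl5. Among T cell genes, Cd3g had 3.20 FPKM in castrated males and 0.731 in sham males (adjusted p = 0.0201 in the authors' deposited table). Cd2, an adhesion receptor of T and natural killer cells, had 1.34 against 0.396 FPKM (adjusted p = 0.00558 in the authors' deposited table), and Zap70 had 4.54 against 2.78 FPKM (adjusted p = 0.00846 there).

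In that comparison 7 of the 8 members tested were called higher and 0 lower, against 20.2% higher and 21.5% lower of 5058 genes tested. The member not called was Il2rb, the shared beta chain of the IL-2 and IL-15 receptors, with 0.688 FPKM in castrated males and 0.423 in sham males (adjusted p = 0.0941 in the authors' deposited table). By the means 26 of 27 members, and 31 of the 32 in the tables, were higher in castrated males, and 51.0% of all genes were. The median member difference was 0.45 on the log2(FPKM + 1) scale, or 0.38 over the 32, against 0.01 over all genes. Markers of other cells moved too: all 14 macrophage genes had a higher mean in castrated males, with a summed level of 162 against 105 FPKM in sham males. The red cell genes had a lower sum, at 104 against 174 FPKM. Within that list Alas2 had 13.0 against 57.5 FPKM, while Hba-a1 had 35.1 against 36.6 and Hba-a2 23.8 against 24.3. The 8 neutrophil genes summed to 10.2 FPKM in castrated males against 4.83 in sham males, and S100a8 was called higher in the authors' deposited table. Their part in the result was not tested. Ptprc, the CD45 gene of all leukocytes, had 3.98 FPKM in castrated males against 1.82 in sham males (adjusted p = 8.56e-04 in the authors' deposited table).

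Sham female and sham male livers of 12 weeks were compared by the authors' table for few genes. Nkg7 was the single member listed, and it was higher in females, with 1.49 FPKM against 0.546 in sham males (adjusted p = 0.0383 in the authors' deposited table). All 628 genes listed for this comparison were called, 47.1% higher and 52.9% lower, so the call follows from the listing. By the means, 26 of 27 members (31 of the 32) were higher in sham females than in sham males, with a median difference of 0.41, against 0.00 over all genes. Ccl5 had 6.15 FPKM in sham females and 1.41 in sham males, close to the castrated male mean of 6.36.

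Castrated male and sham female livers of 12 weeks differed at 2 of 8 members tested. Cxcl13, the chemokine that draws B cells through the receptor CXCR5, was lower in castrated males, with 0.542 FPKM against 2.34 in sham females (adjusted p = 8.56e-04 in the authors' deposited table). Cd79a was higher in castrated males, with 2.22 FPKM against 1.26 in sham females (adjusted p = 0.0208 in the authors' deposited table). The B cell chemokine and the B cell receptor chain thus differed in opposite directions. The background was 2.58% called higher and 4.28% lower of 5588 genes tested. Of the T cell members, Cd3d, Cd3e and Lck were tested and not called. The 14 macrophage genes summed to 162 FPKM in castrated males and 287 in sham females, with all 7 tested called lower in castrated males, and their part was not tested.

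**Figure D3:**
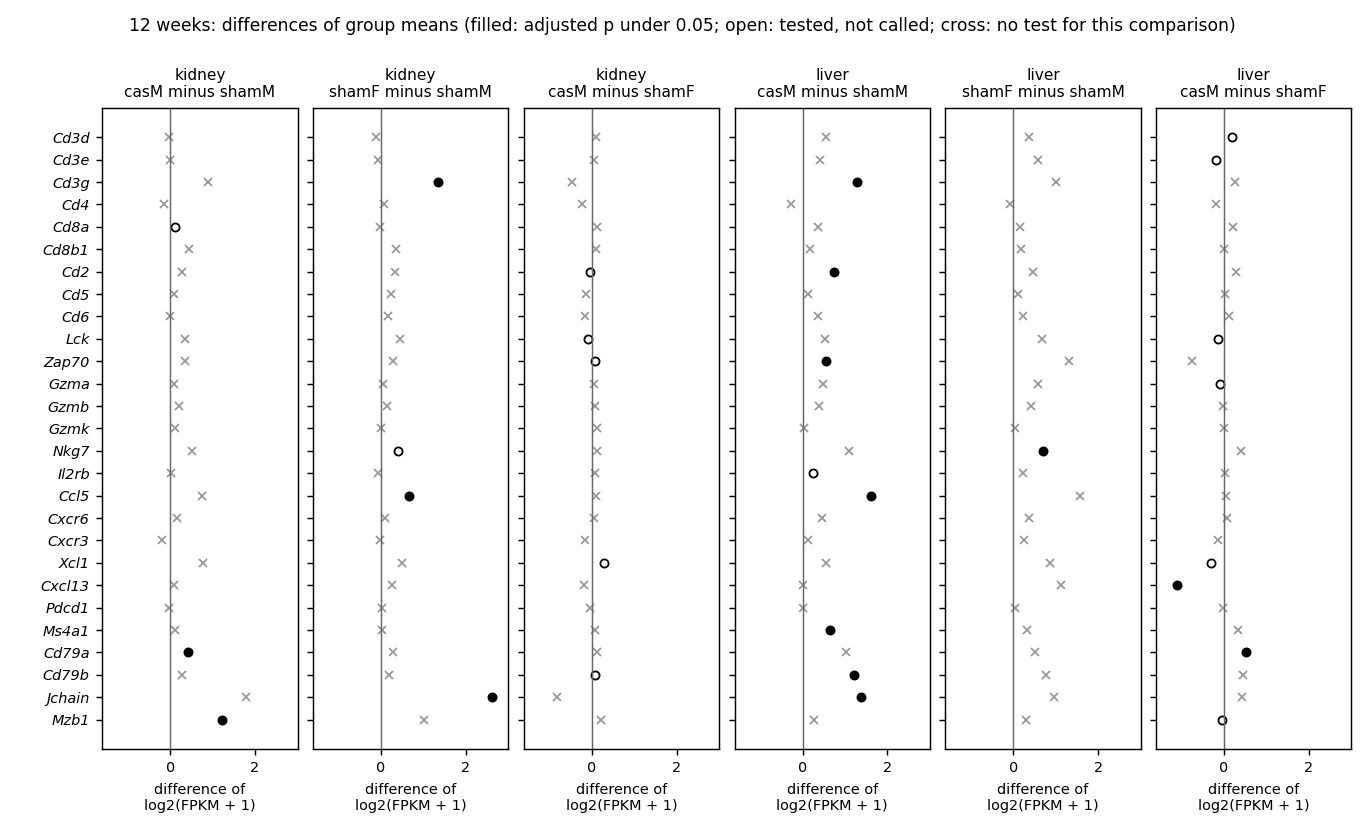
Difference of log2(FPKM + 1) between group means at 12 weeks for the 27 members (rows) in each tissue and comparison. Filled points have an adjusted p under 0.05 in the authors' deposited tables, open points were tested and not called, and crosses had no test for that comparison; most filled points lie in the liver panel of casM minus shamM, to the right of 0.

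At 18 months the authors' DESeq2 table covers every comparison, so all 27 members were tested each time. Its log2 folds are given here as the first named group over the second, which is the negative of the deposited column, since that column runs the other way. Each fold is followed by the standard error that its deposited p-value implies.

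In 18-month kidney, 1 member was called for castration, although nearly all stood higher. Gzmk, the granzyme that marks a set of CD8 T cells described in tissues of old mice, had a mean of 1.27 in castrated males against 0.363 in sham males. Its log2 fold was 1.70 ± 0.65 (implied SE), with an adjusted p of 0.0396 in the authors' deposited table. That is 1 of 27 members called higher and 0 lower, against 9.56% higher and 13.1% lower of 17872 genes tested. With Tox2, a nuclear factor of follicular helper T cells below the minimum, at means of 0.306 and 0.0967, it was 2 of 32. An unadjusted p under 0.05 was reached by 8 of the 27, all higher in castrated males.

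The means behind these calls pointed 1 way in castrated male kidneys. Of the 27 members 26 had a higher mean in castrated than in sham males (30 of the 32 in the tables), against 69.8% of all genes, with a median difference of 0.41 against 0.12 over all genes. Gzmk and the B cell members were among the widest. Cd79b, the second signalling chain of the B cell receptor, stood at 2.96 in castrated males and 1.18 in sham males (log2 fold of 1.18 ± 0.48 and adjusted p = 0.0605 in the authors' deposited table). Ms4a1 had 0.726 in castrated males and 0.207 in sham males (adjusted p = 0.108 in the authors' deposited table). Jchain went the other way, at 46.5 in castrated males and 56.2 in sham males (log2 fold of -0.41 ± 0.64, adjusted p = 0.756 in the authors' deposited table). For Cxcr6, a receptor of tissue-resident T cells, the difference between the means of 1.95 and 1.92 and the turned fold of -0.13 ± 0.39 differ in sign.

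Sham female and sham male kidneys of 18 months did not differ at any member by the authors' DESeq2 test. Of 27 members 0 were called, where 7.91% of 17625 genes were called higher and 8.9% lower in sham females. At an unadjusted p under 0.05 the count was 1, Cxcr6, with 1.16 in sham females and 1.92 in sham males (log2 fold of -0.86 ± 0.38, adjusted p = 0.112 in the authors' deposited table). By the means 5 of 27 members (8 of the 32) were higher in sham females, and 66.7% of all genes were. Ptprc had nearly equal means of 4.87 and 4.97.

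Against sham females, castrated male kidneys of 18 months were higher in T cell genes. Cd2 had 2.59 in castrated males against 0.920 in sham females, with a log2 fold of 1.49 ± 0.43 and an adjusted p of 0.0121 in the authors' deposited table. Pdcd1, the inhibitory receptor PD-1 of activated T cells, had 0.948 against 0.320 (1.60 ± 0.54, adjusted p = 0.0466 in the authors' deposited table). Cd8a, the coreceptor chain of cytotoxic T cells, had 1.76 against 1.02 (0.77 ± 0.27, adjusted p = 0.04998 in the authors' deposited table). Cd8a was thus called by a very small margin, and Cd6, a T cell adhesion receptor with means of 0.802 and 0.330, missed it with an adjusted p of 0.05003 in the authors' deposited table.

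Called members were 3 of 27 higher and 0 lower, and 3 of the 32, against 2.73% higher and 4.41% lower of 17889 genes tested. An unadjusted p under 0.05 was reached by 17 of the 27, all higher in castrated males, among them 10 of 11 T cell receptor and surface members. The Cd8b1 means were 1.28 in castrated males and 0.520 in sham females, and Ccl5 had 24.3 and 11.0, with adjusted p of 0.0584 and 0.0580 in the authors' deposited table. Cd8a and Cd8b1, the chains of the CD8 coreceptor, lie 35.9 kb apart on chromosome 6. Ptprc was higher in castrated males, with 7.54 against 4.87 in sham females (adjusted p = 0.0430 in the authors' deposited table). The 3 comparisons of a tissue and age share their libraries in pairs, so their results are not independent.

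Red cell genes moved with the kidney members. The 5 red cell genes, for haemoglobin chains and the haem synthesis enzyme Alas2, summed to 5246 in castrated male, 2726 in sham female and 3460.3 in sham male kidneys at 18 months, and all 5 were called higher in castrated males than in sham females. Against sham males 3 of them were called higher. The 6 endothelial genes summed to 205, 181 and 147, and the 14 macrophage genes to 262, 206 and 190.2, in castrated males, sham females and sham males, with Marco, Timd4 and Vsig4 under 0.1 in every 18-month kidney group. Csf1r of the macrophage list went the other way, with 16.0 in castrated males, 32.4 in sham females and 17.5 in sham males. It was called lower in castrated males against sham females (adjusted p = 5.56e-07) and sham males (adjusted p = 0.0407) by the authors' DESeq2 test. The part of these cells in the lymphocyte result was not tested.

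In 18-month liver, Cd3g, Cd8a and Ccl5 were called higher after castration. Cd3g had a mean of 1.91 in castrated males against 0.220 in sham males, and the authors' deposited table gives a log2 fold of 2.90 ± 0.83 and an adjusted p of 0.0260. Cd8a had 0.704 against 0.0900 (2.83 ± 0.83, adjusted p = 0.0334 in the authors' deposited table), and Ccl5 had 13.1 against 2.65 (2.12 ± 0.62, adjusted p = 0.0307 there). Each was at least 4.96 times higher by the means. These were 3 of 27 members (3 of the 32) called higher and 0 lower, where 1.08% of 16883 genes were called higher and 1.01% lower.

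B cell members differed by similar ratios in that comparison without a call. Cd79a had 5.49 in castrated males and 1.37 in sham males, with a log2 fold of 1.67 ± 1.14 and an adjusted p of 0.782 in the authors' deposited table. Cxcl13 had 5.54 in castrated males and 0.920 in sham males (2.30 ± 1.36, adjusted p = 0.702 in the authors' deposited table). Their implied errors were wider than those of Ccl5 and Cd3g in the same comparison. By the means all 27 members, and all 32 in the tables, were higher in castrated males, against 70.9% of all genes, and the median difference was 0.58 against 0.10 over all genes. Pdcd1 is listed at 0 in sham males and had 0.192 in castrated males. All 8 neutrophil genes also had higher means in castrated males, with a summed level of 35.6 against 13.2 in sham males and 0 called (0 at an unadjusted p under 0.05 by the authors' DESeq2 test). The macrophage sum was 228 against 151, and the part of these cells was not tested.

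Sham female livers of 18 months were higher than sham male livers in 10 of 27 members, and 0 were lower. The background was 5.87% called higher and 3.91% lower of 16659 genes tested. Called genes came to 11 of the 32 measured, the additional one being Prf1, the pore-forming perforin, with means of 0.333 in sham females and 0.0200 in sham males. They were Cd3e, Cd3g, Cd8a, Gzma, Gzmb, Nkg7, Ccl5, Cxcr6, Il2rb and Pdcd1, while the natural killer receptors Ncr1 and Klrb1c, below the minimum, were not called. Gzma and Gzmb, granule proteases of killer cells, had 3.19 and 1.79 in sham females against 0.143 and 0.340 in sham males. The authors' deposited table gives Gzma a log2 fold of 4.31 ± 1.36 (adjusted p = 0.0220) and Gzmb 2.20 ± 0.64 (adjusted p = 0.0109). Nkg7 had 5.57 in sham females against 0.530 in sham males (3.16 ± 0.86, adjusted p = 0.00563 in the authors' deposited table). Gzmk, which lies 70.6 kb from Gzma on chromosome 13, had 0.890 and 0.0833 and was not called (adjusted p = 0.207 in the authors' deposited table).

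The T cell receptor genes were called in part. Cd3g had 2.48 in sham females against 0.220 in sham males (3.30 ± 0.87, adjusted p = 0.00368 in the authors' deposited table), and Cd3e had 1.33 against 0.173 (2.75 ± 0.93, adjusted p = 0.0359 there). Cd8a had 1.47 in sham females against 0.0900 in sham males (3.90 ± 1.02, adjusted p = 0.00339 in the authors' deposited table). Cd4, the coreceptor of helper T cells, had nearly equal means of 0.333 in sham females and 0.327 in sham males (-0.18 ± 0.53, adjusted p = 0.942 in the authors' deposited table). The ratio of Cd8a to Cd4 was accordingly 4.42 in sham females and 0.276 in sham males, with 1.63 in castrated males.

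Among chemokines and receptors, Ccl5 had 27.4 in sham females against 2.65 in sham males (3.10 ± 0.85, adjusted p = 0.00590 in the authors' deposited table). Cxcr6 had 0.947 against 0.0933 (3.23 ± 0.98, adjusted p = 0.0157 in the authors' deposited table). Il2rb, through which IL-15 sustains natural killer and memory CD8 T cells, had 1.93 in sham females against 0.370 in sham males (2.12 ± 0.65, adjusted p = 0.0180 in the authors' deposited table). Pdcd1 had 0.900 in sham females and is listed at 0 in sham males, with an adjusted p of 0.00263 in the authors' deposited table. No B cell or plasma cell member was called: Cd79a had 2.07 in sham females and 1.37 in sham males (adjusted p = 0.802), and Jchain had 15.6 and 5.17 (adjusted p = 0.0937), both from the authors' deposited table.

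The promoters of 4 of these called members are printed because each holds the letters TGTGGT, the core that RUNX factors, regulators of killer lymphocyte genes, are known to bind. They come from the RefSeq promoter table of GRCm38.p6 and run from 250 bases before to 50 bases after the annotated start, in the direction of transcription. Capitals mark the letters TGTGGT, or ACCACA where they lie on the other strand. Gzma is at chr13:113100932-113101231 (minus strand), Gzmb at chr14:56262285-56262584 (minus strand), Nkg7 at chr7:43436888-43437187 (plus strand) and Cxcr6 at chr9:123806227-123806526 (plus strand).
Gzma: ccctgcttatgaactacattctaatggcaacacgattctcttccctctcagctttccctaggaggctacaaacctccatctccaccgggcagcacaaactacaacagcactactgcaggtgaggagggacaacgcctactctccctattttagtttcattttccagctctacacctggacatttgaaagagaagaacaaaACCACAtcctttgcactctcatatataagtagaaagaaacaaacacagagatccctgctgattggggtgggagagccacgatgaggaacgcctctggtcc
Gzmb: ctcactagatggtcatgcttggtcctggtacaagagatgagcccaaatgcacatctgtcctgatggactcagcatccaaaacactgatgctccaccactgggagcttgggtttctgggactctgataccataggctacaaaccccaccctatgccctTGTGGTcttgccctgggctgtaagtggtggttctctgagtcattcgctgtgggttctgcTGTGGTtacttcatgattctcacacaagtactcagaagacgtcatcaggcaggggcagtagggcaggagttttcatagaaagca
Nkg7: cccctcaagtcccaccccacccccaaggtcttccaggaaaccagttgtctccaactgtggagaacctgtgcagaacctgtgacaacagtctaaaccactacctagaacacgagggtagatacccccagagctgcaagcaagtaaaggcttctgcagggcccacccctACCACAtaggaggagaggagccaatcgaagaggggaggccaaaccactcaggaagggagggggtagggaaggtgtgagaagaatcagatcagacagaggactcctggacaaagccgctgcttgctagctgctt
Cxcr6: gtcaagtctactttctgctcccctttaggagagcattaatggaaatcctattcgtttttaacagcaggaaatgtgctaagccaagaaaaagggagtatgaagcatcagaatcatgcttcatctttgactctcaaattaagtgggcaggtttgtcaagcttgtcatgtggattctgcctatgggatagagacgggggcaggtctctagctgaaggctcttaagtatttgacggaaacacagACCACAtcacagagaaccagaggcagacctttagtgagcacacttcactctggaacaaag
The match begins 50 bases before the start in Gzma, 93 and 34 in Gzmb, 83 in Nkg7 and 10 in Cxcr6. Of the 27 members 18 were in the promoter table, and 8 of these held TGTGGT on either strand, namely Cxcr3, Cxcr6, Gzma, Gzmb, Lck, Nkg7, Xcl1 and Zap70. Among the members called in this liver comparison, Cd3e, Cd3g, Cd8a and Pdcd1 had promoters without it, and Ccl5 and Il2rb had no promoter listed. These 18 members have 21 promoters listed, of which 8 held it. Among all 32851 promoters listed, 16.8% held it. The octamer ATGCAAAT of B cell genes was in 0 of the 21 member promoters and in 1.74% of all promoters. The EBF letters TCCCNNGGG were in 0 and in 6.56%, and the NF-kappaB letters GGNNNTTCC in 3 (Cd3g, Cd79a and Gzmk) and in 18.5%. Both strands were searched and no printed match overlaps another motif. A match is a description of letters in this window and not a binding site.

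Castrated male and sham female livers of 18 months did not differ at any member by the authors' DESeq2 test. Of 27 members 0 were called, where 0.53% of 16971 genes were called higher and 0.595% lower in castrated males. At an unadjusted p under 0.05 the count was 3, all lower in castrated males. Gzma had 0.494 in castrated males and 3.19 in sham females (log2 fold of -2.50 ± 1.08, adjusted p = 0.355 in the authors' deposited table). Gzmb had 0.602 and 1.79 (-1.51 ± 0.61, adjusted p = 0.308 in the authors' deposited table), and Pdcd1 had 0.192 and 0.900 (-2.26 ± 1.04, adjusted p = 0.416 there).

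The balance of B cell against killer cell genes differed between these livers by the means. The cytotoxic members summed to 4.21 in castrated males, 11.4 in sham females and 1.10 in sham males, and the B cell members to 10.6, 4.36 and 2.52. All 3 B cell members were higher in castrated males than in sham females, and all 4 cytotoxic members were lower. The ratio of Cd79a to Nkg7 was 1.996 in castrated males, 0.371 in sham females and 2.58 in sham males. The interval implied for Cd79a (log2 fold of 1.29 ± 0.91, adjusted p = 0.749 in the authors' deposited table) leaves its direction undecided, and the balance itself was not tested. Of the other cells, 5 of 6 stromal genes were called lower in castrated males, and all 14 macrophage genes had lower means, with 0 called and 9 at an unadjusted p under 0.05 by the authors' DESeq2 test.

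**Figure D4:**
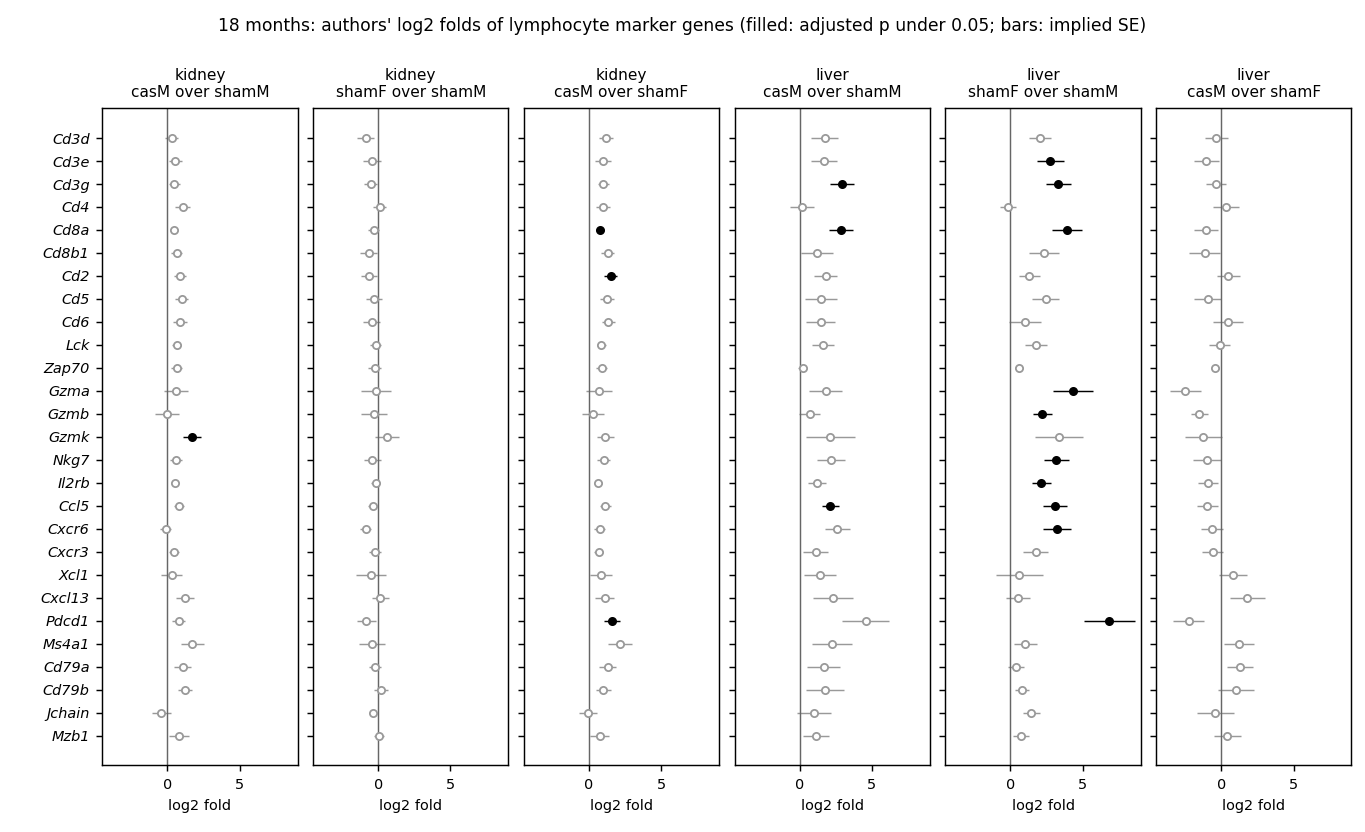
Log2 folds of the 27 members at 18 months from the authors' deposited table, turned so that a positive value is higher in the first named arm, with bars of 1 implied standard error. Filled points have an adjusted p under 0.05: 1, 0 and 3 in the kidney panels and 3, 10 and 0 in the liver panels.

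Ligands, receptors and other lymphocyte genes were read beside the members. In 18-month kidney, Cxcl9, an interferon-induced ligand of CXCR3, was higher in castrated males, with 2.94 against 1.23 in sham males (adjusted p = 0.0303 in the authors' deposited table). Ccl19 and Ccl21a, chemokines of lymphoid stroma, had 21.7 and 16.5 in castrated males against 10.1 and 8.92 in sham males. Both are called in the authors' deposited table and belong to a list of 12 lymphoid tissue genes. Tnfsf13b and Cr2 of that list were also called higher, and no gene of it lower. Il15, which sustains natural killer and CD8 T cells, was lower in castrated males, with 12.0 against 16.3 in sham males (adjusted p = 0.00143 in the authors' deposited table). Of 18 ligand, receptor and other partner genes measured 3 were called higher for castration, namely Cxcl9, Cd86 and Serpinb9, and 1 lower, Il15. Of 38 other lymphocyte genes 4 were called higher and 0 lower. Over all 17872 genes tested, 9.56% were called higher and 13.1% lower, so the 4 of 38 were close to that share.

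Against sham females, Cd247, the zeta chain of the T cell receptor complex, had 1.85 in castrated male kidneys of 18 months against 0.563 (1.72 ± 0.37, adjusted p = 2.23e-04 in the authors' deposited table). Coro1a, an actin regulator of leukocytes, had 21.5 against 11.2 (adjusted p = 9.82e-04 in the authors' deposited table). In that comparison 7 of the 38 other lymphocyte genes were called higher and 0 lower, against 2.73% and 4.41% of 17889 genes tested. Castrated male kidneys were thus higher in T cell and shared leukocyte genes outside the members as well.

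In 18-month liver, Lat, an adaptor of T cell receptor signalling, had 1.38 in sham females against 0.197 in sham males (adjusted p = 0.0141 in the authors' deposited table). Thy1, a surface protein of mouse T cells, had 2.11 against 0.497 (adjusted p = 0.0109 in the authors' deposited table). Il2rg, the common cytokine receptor chain, had 5.77 in sham females against 1.07 in sham males (adjusted p = 0.0153 in the authors' deposited table). Of the 18 ligand, receptor and other partner genes 5 were called higher, and of the 38 other lymphocyte genes 12, with 0 lower in either list. Over all 16659 genes tested, 5.87% were called higher and 3.91% lower. For castration 0 of 18 and 0 of 38 were called in 18-month liver, with 5 and 12 at an unadjusted p under 0.05 by the authors' DESeq2 test. The shares called over 16883 genes tested there were 1.08% higher and 1.01% lower. In 12-week liver 11 of the 13 other lymphocyte genes tested for castration were called higher in castrated males, against 20.2% of 5058 genes tested.

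The sham female livers of 18 months were also high in other cells. The 14 macrophage genes summed to 228 in castrated males, 653 in sham females and 151 in sham males, and 7 of them were called higher in sham females than in sham males. The 6 stromal genes summed to 117, 277 and 102 in these groups, and 5 were called higher in sham females. Ptprc had 3.69 in castrated males, 5.94 in sham females and 1.49 in sham males, and was called between the sham groups (adjusted p = 0.0179 in the authors' deposited table). The ratio of Ccl5 to Ptprc was 3.57 in castrated males, 4.61 in sham females and 1.77 in sham males, so Ccl5 differed by more than the leukocyte gene did between these means. The 5 red cell genes summed to 1476, 893 and 985 in castrated males, sham females and sham males. That sum was thus highest where the members were not. Alas2 of this list ran apart, with 20.8 in castrated males, 7.78 in sham females and 70.1 in sham males. It was called lower in castrated than in sham males (adjusted p = 1.19e-08 by the authors' DESeq2 test). The part of these cells in the lymphocyte result was not tested.

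**Figure D5:**
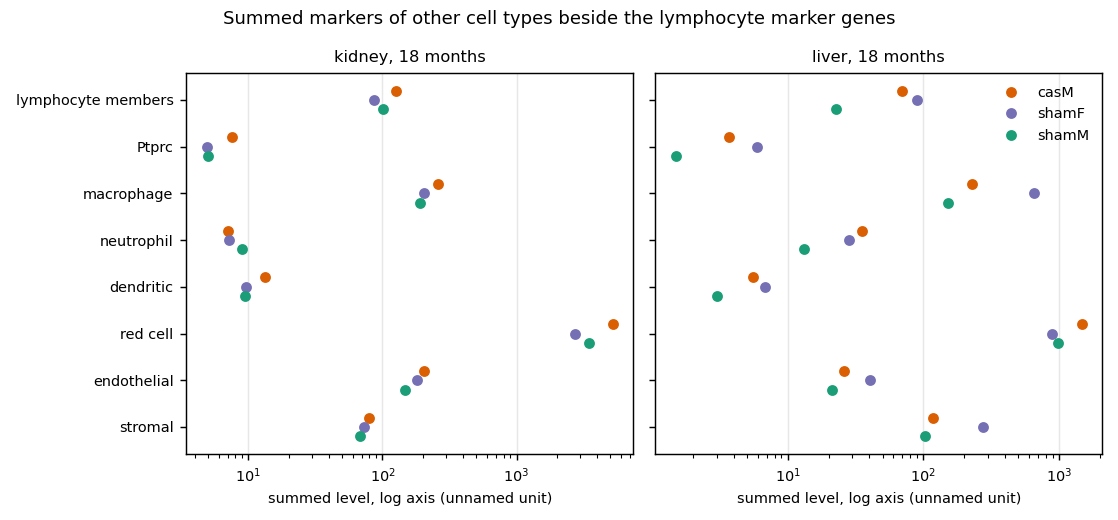
Summed group means at 18 months (log axis, unnamed unit) of the 27 members, of Ptprc and of marker lists for 6 other cell types in castrated males (casM), sham females (shamF) and sham males (shamM). In kidney the members and the red cell list are highest in castrated males (126.6 and 5246), and in liver the members and the macrophage list are highest in sham females (89.3 and 653).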

How the data were processed

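RNA of kidney and liver was analysed in 46 libraries of 12 groups. The mm10 build and the tools HISAT2, SAMtools and Cufflinks stand in the submitters' processing notes, without versions. The authors deposited FPKM means per group for 12 weeks and, for 18 months, a normalized expression signal in a unit the files leave unnamed. The deposited 12-week comparison tables follow Cuffdiff's layout, per the file headers, with p-values, their adjusted values and a test score, and the 18-month table holds log2 folds, p-values and q-values from DESeq2. In the 12-week tables each gene is listed for 1 of 3 comparisons, and 4745 kidney and 5968 liver genes were taken as untested, from a statistic of 0 with p of 1 or from the status column.

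The files hold means only, so the tests are the authors', called at an adjusted p under 0.05, and the test per library planned for files with libraries was not made. Nothing in the labels says that libraries are separate animals, so p-values measure the spread between libraries, which may be technical. Depth is unknown and its precision could not be given. At 18 months the deposited log2 fold runs against the order of the means in 4047 of 4051 genes called for castration in kidney, and its negative is given. The implied standard error is the size of that fold over the two-sided normal deviate for the deposited p, and the step was tested on simulated data. Differences of means use log2(mean + 1), which understates the change of low genes. Work was done in Python 3.11.15 with pandas 2.3.3 and scipy 1.17.1. Promoters come from RefSeq. Genes named are the members, called genes of the other lists, ligands and receptors of members, and Ptprc. The members and gene lists were chosen with earlier results of these data known. Alternatives were adjusted p limits of 0.01 and 0.1, a minimum mean of 1 or none, pseudocounts of 0.1 and 0.5, centring on all genes and, added after seeing the data, medians of the deposited folds.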

Additional observations from a re-analysis of the deposited data

How the results depend on the processing

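Counts of called members depended mostly on the adjusted p limit. At 0.01 the count was 1 for castration in 12-week kidney (2 at 0.05), 0 for sham females against sham males (1) and 1 for castrated males against sham females (2) in 12-week liver, and 0 for castration (1) and 0 for castrated males against sham females (3) in 18-month kidney. In 18-month liver it was 0 for castration (3) and 5 for sham females against sham males (10). At 0.1 the count was 2 for castration and 9 for castrated males against sham females in 18-month kidney, and with no minimum mean it was 2 for castration in 18-month kidney. The other 10 counts at 0.1, 11 with no minimum and all 12 with a minimum of 1 stayed within 1.5 times.

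Of the median differences, 1 changed sign: for castrated males against sham females in 12-week liver it was 0.02 and became -0.0043 with a minimum mean of 1. Centring on all genes kept the sign of all 12 medians, and in 18-month kidney the median of sham females against sham males went to -0.16, against -0.05 uncentred. Taken from the deposited folds with their sign turned, the 6 medians at 18 months kept their sign and were larger in size. For sham females against sham males in liver the median became 2.06. All 12 medians moved by over 1.5 times with a pseudocount of 0.1. The cause of these shifts was not tested.

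No library was left out in turn, since the files hold group means. No paired analysis was possible because the columns carry no replicate numbers. Low means and 3 sham libraries per group limit the precision.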
